A study of Mus musculus with 24 samples.

Results

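Loss of the coactivator CBP in excitatory forebrain neurons was measured by RNA-seq in whole hippocampus of mice kept in standard cages (SC). The mice were taken by their housing and genotype labels, 3 CBP-ifKO and 3 control mice, which is 6 of the 12 mice of the series; the others were housed in environmental enrichment (EE). CBP-ifKO mice carry the Crebbp_flox;Camk2a_creERT2 genotype, in which tamoxifen starts recombination of the floxed Crebbp alleles in cells that express CaMKIIα. Control mice were littermates without the CaMKIIα-creERT2 transgene, and they received tamoxifen as well (5 administrations, 20 mg/mL). All were C57BL/6 females aged 3 to 6 months. Because the Cre driver acts in excitatory forebrain neurons, the interneurons, glia and vessel cells of these hippocampi are not its targets.

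CBP, the CREB-binding protein encoded by Crebbp, is a lysine acetyltransferase that is recruited to promoters and enhancers by CREB and many other transcription factors. It acetylates histone tails and other proteins and serves as a bridge to the transcription machinery. Its paralog p300, encoded by Ep300, shares most of its domains and partners. In neurons CBP is known for its part in transcription driven by synaptic activity and calcium.

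The values below are in CPM, counts per 1000000, from the deposited read counts per gene and library sizes scaled by the TMM method. Control hippocampi held markers of each subfield: Prox1 of dentate granule cells averaged 103 CPM, Wfs1 of CA1 138 CPM, Rgs14 of CA2 111 CPM and Grik4 of CA3 69.3 CPM. One property of the table separates the genotypes in every library. Odd numbers made up 54.0%, 54.4% and 54.1% of the nonzero counts in control mice 1 to 3, whereas each CBP-ifKO library had 0 odd counts. The cause was not tested, and it cannot be told apart from genotype. Counts were therefore tested as deposited and again with those of CBP-ifKO mice halved. The strand used for counting is not stated, so an overlap of a named gene's exons with an opposite-strand gene is given. In some cases, such as Col5a1 and Hdac11, the other gene is not named.

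Crebbp read 73.9, 82.1 and 70.7 CPM in control mice and 50.6, 51.6 and 49.9 CPM in CBP-ifKO mice. All CBP-ifKO mice lay below all controls, and the change was -32.9%, in a tissue with many cells that the driver does not target. Mean Crebbp was 75.6 ± 5.86 CPM in controls and 50.7 ± 0.863 CPM in CBP-ifKO mice (SD, n = 3; log2 fold change -0.58, adjusted p = 0.000542 in edgeR). Ep300 read 55.8, 83.8 and 64.4 CPM in controls and 77.5, 75.8 and 78.0 CPM in CBP-ifKO mice. Those groups overlapped, with control mouse 2 the highest of all, and the log2 difference of 0.18 did not pass (adjusted p = 0.394). Without control mouse 2, Ep300 passed with a log2 difference of 0.36 (adjusted p = 0.00593). In bulk tissue, fewer cells of a type and less RNA per cell cannot be told apart.

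More genes fell than rose with CBP loss, and most changes were small. Of 17532 genes with enough reads, 968 (5.52%) passed an adjusted p of 0.05 in edgeR, 264 increased (1.51%) and 704 decreased (4.02%). With CBP-ifKO counts halved, 958 of 16918 passed (5.66%), 254 increased (1.5%) and 704 decreased (4.16%). The median log2 fold change was 0.36 among increased and -0.37 among decreased genes. A change of less than 0.5 log2 units was found for 202 increased (76.5%) and 483 decreased genes (68.6%), whereas 14 rose and 55 fell by more than 1. Decreased genes were the more abundant ones, with a median of 70.6 CPM in controls against 23.0 CPM for increased genes and 15.6 CPM for genes that did not pass. Among the 4383 genes with the highest control CPM, 8.81% fell and 0.935% rose, and among the 4383 with the lowest 0.456% fell and 0.411% rose. The mice do not weigh equally: without CBP-ifKO mouse 1, 2 or 3 the test passed 404, 399 and 433 genes, and without control mouse 1, 2 or 3 it passed 637, 1908 and 435. In all 6 of these fits 45 of the increased and 234 of the decreased genes passed. Below, such a gene is said to be kept. Outside the supplementary gene list of the study, which was drawn partly from these libraries, lie 781 of the 968 genes, 248 increased and 533 decreased. The study listed only genes that it retrieved in every one of its separate CBP-ifKO screens with DESeq2. The 968 come from 1 screen in edgeR, so the criteria differ. The 61 gene lists used below hold 2163 of the genes tested and 211 of the 968 (21.8%). Many list medians near 0 move by more than 1.5 times without 1 mouse, some of them past 0, and a single call in a small list is near the share of all genes.

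Among the 15 leading decreases, those lowest in p whose groups do not overlap once a few genes discussed in the study (such as C1ql2 and Penk) and all Camk genes are left out, Rgs14, a scaffold for Ras and G protein signals in CA2 neurons, read 116, 110 and 106 CPM in controls and 49.1, 54.7 and 50.8 CPM in CBP-ifKO mice. The groups lay far apart (log2 fold change -1.10, adjusted p = 5.27e-06). Sept9, a septin that polymerises into cytoskeletal filaments, read 107, 108 and 111 CPM in controls against 62.3, 65.8 and 65.8 CPM. Both groups were tight and did not overlap (log2 fold change -0.75, adjusted p = 2.2e-05). Serpina3n, a secreted serine protease inhibitor, read 48.4, 51.7 and 64.0 CPM in controls and 20.0, 22.8 and 22.9 CPM in CBP-ifKO mice. Every control was far above every CBP-ifKO mouse (log2 fold change -1.32, adjusted p = 4.32e-05). Tesc, the calcium-binding protein tescalcin, read 30.6, 29.7 and 31.1 CPM in controls and 13.4, 16.4 and 15.4 CPM in CBP-ifKO mice, a fall in every CBP-ifKO mouse (log2 fold change -1.02, adjusted p = 8.23e-05).

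Among the other leading decreases, Psrc1, which binds microtubules, fell by 1.38 on the log2 scale, and Myo5b, a motor of recycling endosomes, fell by 0.70. Trpc6, a calcium-permeable cation channel, fell by 0.95, and Ptpru, a receptor tyrosine phosphatase, fell by 0.58. Rin1, a Ras effector that activates Rab5, fell by 0.63. The matrix protein gene Thbs3, a thrombospondin that shares exonic sequence with Mtx1 on the opposite strand, fell by 1.06. The extracellular carbonic anhydrase Car12 fell by 1.13, the long noncoding RNA Gm26644 fell by 1.47, and Ttr, Igfbp4 and Grp are described with their gene groups. Adjusted p values of these genes ran from 1.12e-05 for Thbs3 to 0.000137 for Gm26644, and all 15 leading decreases were kept.

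Among the 15 leading increases, chosen in the same way, Adi1, an enzyme of the methionine salvage pathway, read 28.1, 26.5 and 28.2 CPM in controls and 44.5, 47.6 and 43.0 CPM in CBP-ifKO mice. All CBP-ifKO mice were higher than all controls (log2 fold change 0.70, adjusted p = 0.000155). Gm6472, an annotated transcribed pseudogene, read 2.0, 1.55 and 1.60 CPM in controls and 9.33, 9.15 and 8.84 CPM in CBP-ifKO mice. That was the largest fold among the 15 leading increases (log2 fold change 2.40, adjusted p = 1.03e-05). Shd, an SH2-domain adaptor, rose in every CBP-ifKO mouse, to 25.1, 25.0 and 24.0 CPM from 16.8, 14.2 and 14.7 CPM (log2 fold change 0.70, adjusted p = 0.000897). Cchcr1, a coiled-coil protein of centrosomes and P-bodies, stood at 3.56, 3.63 and 3.38 CPM in controls and 7.11, 7.56 and 7.04 CPM in CBP-ifKO mice, with no overlap (log2 fold change 1.04, adjusted p = 0.00097).

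Further leading increases included a pair of receptors, Ltk (log2 fold change 0.59), a receptor tyrosine kinase, and Tfr2 (0.67), a transferrin receptor. Stxbp2, the Munc18-2 protein of vesicle fusion outside the classical synaptic machinery, rose by 0.49 on that scale. Frem3, an extracellular matrix protein, rose by 1.59, and Itih3, which is secreted and binds hyaluronan, rose by 0.46. Cast, which encodes the calpain inhibitor calpastatin and shares exonic sequence with Erap1 on the opposite strand, rose by 0.81. Nudt17, a Nudix hydrolase that overlaps Pias3 on the opposite strand, rose by 0.67. A pair of KRAB zinc finger loci rose, Zfp354c by 0.37 and Zfp783, annotated as a pseudogene that shares exons with Zfp956, by 0.70. The pseudogene Ppp4r1l-ps rose by 0.56, and ENSMUSG00000095041, which has no symbol in the annotation used, rose by 0.35. All 15 were kept, and their adjusted p values did not exceed 0.00302, the value of Cast.

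**Figure D1:**
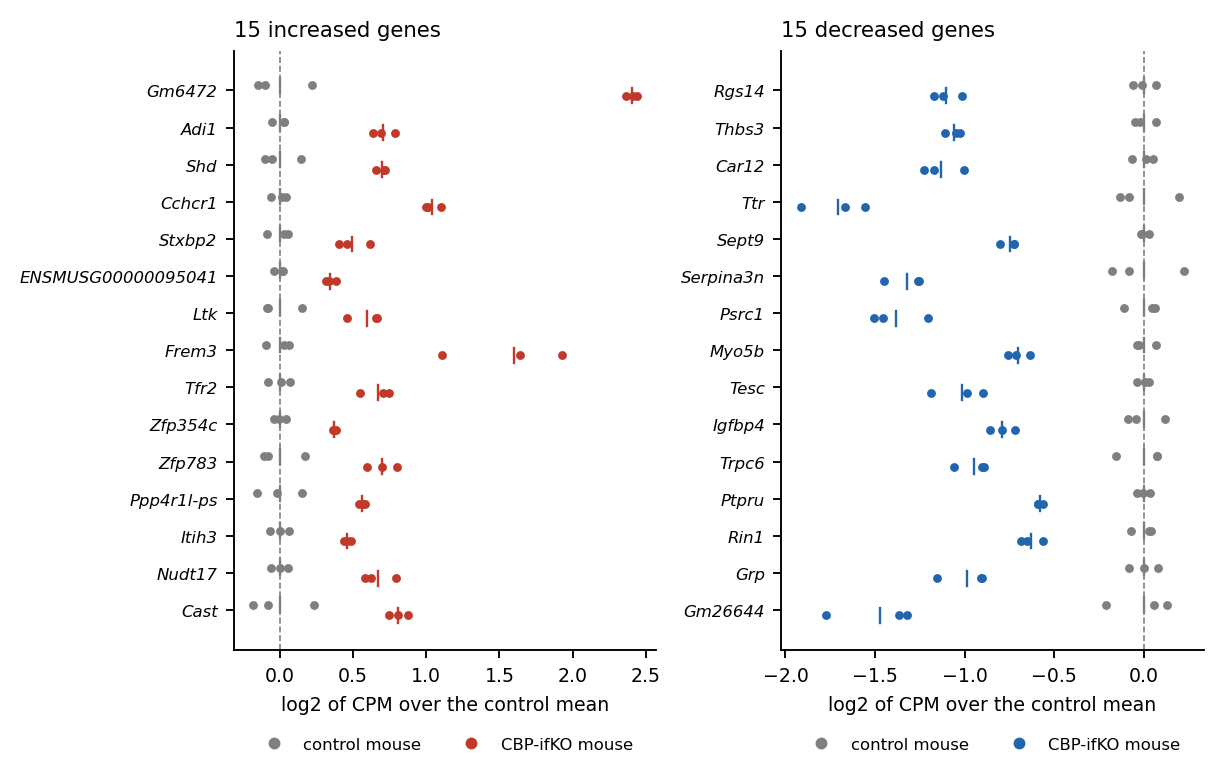
Each point is 1 mouse, placed by the log2 of its CPM over the mean of the 3 control mice, for 15 increased genes (left) and 15 decreased genes (right); short bars are group means. The genes are those lowest in p whose control mice (grey) and CBP-ifKO mice (coloured) do not overlap, leaving out Esr1, Arsi, C1ql2, Penk, Pdyn and Camk genes among others, so the lack of overlap follows from the choice; of the genes shown Gm6472 is the farthest from 0 at 2.40, while Esr1, at 3.96, lies farther.

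Marker genes of excitatory hippocampal neurons fell in each subfield, though in each list some did not pass. In CA1, 4 of 7 markers fell and 0 rose, with a median log2 fold change of -0.33 over the list against -0.00 over all genes tested. Wfs1, an endoplasmic reticulum protein that labels CA1, read 159, 143 and 114 CPM in controls and 97.1, 74.7 and 80.2 CPM in CBP-ifKO mice. The groups were separate although control mouse 3 was low (log2 fold change -0.72, adjusted p = 0.0049). Fibcd1, an acetyl-group receptor of the cell surface, fell by 0.39 and Mpped1 by 0.40, and both were kept with Wfs1. Man1a, a mannosidase of the Golgi that overlaps Gm16998 on the opposite strand, fell by 0.33 but lost the call without CBP-ifKO mouse 1 or control mouse 3 (adjusted p up to 0.0652). In CA2, all 8 markers were below 0 and 3 of them fell (median -0.40), Rgs14, Necab2 and Pcp4. The calcium-binding protein gene Necab2 fell by 0.63 and was kept like Rgs14, whereas Pcp4, a modulator of calmodulin whose exons overlap those of Igsf5, passed without control mouse 2 but lost the call in the other 5 fits (adjusted p up to 0.164). In CA3, 2 of 8 fell (median -0.29), the adhesion protein gene Nectin3 at -0.37 and the neuropeptide Y receptor gene Npy2r at -0.32, and both lost the call without CBP-ifKO mouse 1 or 2, which left 0 calls in the list.

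In the dentate gyrus 5 of 12 markers fell and 1 rose (median -0.21, or -0.12 without CBP-ifKO mouse 3). Trpc6 read 36.8, 36.8 and 31.4 CPM in controls and 18.7, 18.9 and 16.8 CPM in CBP-ifKO mice. Each CBP-ifKO mouse was well below each control (log2 fold change -0.95, adjusted p = 0.000126). Tdo2, the tryptophan dioxygenase that opens the kynurenine pathway, had a log2 fold change of -1.31, C1ql2 of -1.60 and Pdyn of -1.42, and these genes were kept like Trpc6. Plk5, a polo-like kinase of neurons, fell by 0.65 and narrowly missed without CBP-ifKO mouse 3 (adjusted p = 0.0503). Lct, which encodes lactase and is a granule cell marker, rose by 0.56 with adjusted p = 0.0195, but without CBP-ifKO mouse 1, CBP-ifKO mouse 2 or control mouse 3 the list held 5 calls each. Prox1, the transcription factor that sets granule cell identity and overlaps Prox1os, read 107, 102 and 101 CPM in controls and 106, 115 and 100 CPM in CBP-ifKO mice. Its groups overlapped (log2 difference 0.05, adjusted p = 0.69).

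General markers of excitatory neurons were mixed. Slc17a7, the vesicular glutamate transporter, read 1327, 1143 and 1253 CPM in controls and 1262, 1338 and 1232 CPM in CBP-ifKO mice. Camk2a, the kinase whose promoter drives the Cre, read 4176, 4087 and 4027 CPM against 4316, 4284 and 3985 CPM. Neither gene separated the groups (adjusted p = 0.744 for Slc17a7 and 0.728 for Camk2a). Still, 6 of 24 genes of the excitatory identity list fell and 0 rose (median -0.17, or -0.10 without control mouse 1). Mef2d, an activity-regulated factor that shares exons with 1700113A16Rik on the opposite strand, read 235, 224 and 216 CPM in controls and 188, 175 and 167 CPM in CBP-ifKO mice. Its groups were apart (log2 fold change -0.35, adjusted p = 0.00605), and it was the member that was kept. Nfib (-0.35), Lhx2 (-0.41), Nfia (-0.25, overlapping E130114P18Rik) and Etv1 (-0.26) also fell, transcription factors that pattern or specify forebrain neurons. Without CBP-ifKO mouse 1, 2 or 3 the list held 1, 1 and 3 calls, and without control mouse 1, 2 or 3 it held 4, 7 and 3.

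Interneuron markers, whose cells the driver does not target, had 2 decreases among 20 (10%, against 4.02% of all genes) and 0 increases (median -0.09). Cck, a peptide that pyramidal cells express too, read 224, 181 and 196 CPM in controls and 144, 150 and 141 CPM in CBP-ifKO mice. Each control exceeded each CBP-ifKO mouse, and the call was kept (log2 fold change -0.47, adjusted p = 0.00397). Sst, which encodes somatostatin, read 176, 144 and 181 CPM against 122, 130 and 141 CPM, a smaller distance (-0.35, adjusted p = 0.0324), and passed in 1 of the 6 fits without a mouse, that without control mouse 2. Gad1 and Gad2, the enzymes that make GABA, differed by -0.09 and -0.08 (adjusted p = 0.337 and 0.538). Among markers of immature neurons and dividing cells, 1 of 11 tested fell (median -0.28). It was Sox11, a factor of young neurons, at -0.38, which lost its call without any one of the CBP-ifKO mice or control mouse 3, where the list held 0 calls.

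Astrocyte markers had 0 calls among 15 in edgeR (median -0.09), with 3 at an unadjusted p under 0.05 and 0 calls in DESeq2. Gfap, the astrocyte filament protein, differed by -0.16 (adjusted p = 0.226) and the water channel gene Aqp4 by -0.09 (adjusted p = 0.4). Microglial markers had 0 calls among 16 as well (median -0.10, or -0.06 without CBP-ifKO mouse 3), with 3 at an unadjusted p under 0.05 and 0 in DESeq2. Without control mouse 2 the astrocyte list held 2 calls and the microglial list 1. In the oligodendrocyte list 2 of 16 genes fell (median -0.05), the transcription factor genes Olig1 and Olig2. Olig1, which overlaps Gm15966 on the opposite strand, read 75.4, 74.0 and 71.8 CPM in controls and 53.0, 56.6 and 56.3 CPM in CBP-ifKO mice. The groups were clearly apart (log2 fold change -0.42, adjusted p = 0.00191). Olig2 fell by 0.50 (adjusted p = 0.00808), and both were kept. The sign of this list's median depends on control mouse 2, without which it is 0.03.

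Markers of oligodendrocyte precursors were below 0 for 8 of 8 genes, and 3 of them fell (median -0.40). The summed level of the list was 203, 217 and 197 CPM in controls and 173, 157 and 156 CPM in CBP-ifKO mice. Every CBP-ifKO mouse had a lower sum than every control. Pdgfra, the most abundant gene of the list and the growth factor receptor of precursors, read 53.6, 63.2 and 57.5 CPM in controls and 44.9, 39.4 and 49.2 CPM in CBP-ifKO mice (log2 fold change -0.38, adjusted p = 0.0256). Pdgfra shares exonic sequence with Gm42802 and Gm42803 on the opposite strand. Matn4, a matrilin of the matrix that overlaps Rbpjl, fell by 0.63 (adjusted p = 0.00626) and was kept. C1ql1, a secreted C1q-like protein, fell by 0.54 (adjusted p = 0.0463). Without CBP-ifKO mouse 1, 2 or 3 this list held 2, 1 and 2 calls, and without control mouse 1, 2 or 3 it held 2, 4 and 1. Whether the neuronal changes share a source with these glial ones was not tested.

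Vessel and border cells carried single calls, though 14 of 14 endothelial and 15 of 15 mural and leptomeningeal markers were below 0. In the endothelial list 1 of 14 genes fell, Kdr, the VEGF receptor, at -0.43 (median -0.17), and the list sum was 409, 407 and 429 CPM in controls and 379, 354 and 376 CPM in CBP-ifKO mice, with Slc2a1 the most abundant. In the mural and leptomeningeal list 1 of 15 fell, Rgs5, a pericyte regulator of G protein signals, at -0.35 (median -0.35), and the sum was 396, 435 and 509 CPM against 323, 308 and 401 CPM, an overlap by control mouse 1 and CBP-ifKO mouse 3. The call of Kdr was lost without any one of the CBP-ifKO mice or control mouse 3, which left 0 calls among endothelial markers. Rgs5 lost its call without CBP-ifKO mouse 2 or 3 or control mouse 3, where the mural list held 0, 2 and 0 calls. The median of that list depends on the mice too, at -0.18, -0.13 and -0.72 without CBP-ifKO mouse 1, 2 or 3 and -0.12 without control mouse 3. Both sums were lower in CBP-ifKO mice on average, and their part in other results was not tested.

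Ttr, which encodes transthyretin, a thyroid hormone carrier that choroid plexus makes in large amounts, had the largest fold change of the 15 leading decreases. It read 26.0, 21.5 and 20.7 CPM in controls and 7.17, 6.03 and 7.72 CPM in CBP-ifKO mice. The groups were far apart (log2 fold change -1.70, adjusted p = 2.2e-05), and the call was kept. It was the only call among 11 tested choroid plexus and ependyma markers (median -0.28, or -0.16 without CBP-ifKO mouse 1, -0.43 without CBP-ifKO mouse 3 and -0.16 without control mouse 3), and 3 more, Kcnj13, Otx2 and Steap1, had too few reads to test, 0.719 CPM at most in any mouse, for Otx2. With Ttr left out, the other markers summed to 53.0, 50.1 and 56 CPM in controls and 46.4, 51.9 and 57.3 CPM in CBP-ifKO mice, and those sums overlapped. In the EE mice Ttr ranged far more widely, at 1125, 19.5 and 8.83 CPM in controls and 32.5, 4.05 and 22.9 CPM in CBP-ifKO mice, and did not pass (adjusted p = 0.122). Which cells supplied the Ttr reads was not tested.

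**Figure D2:**
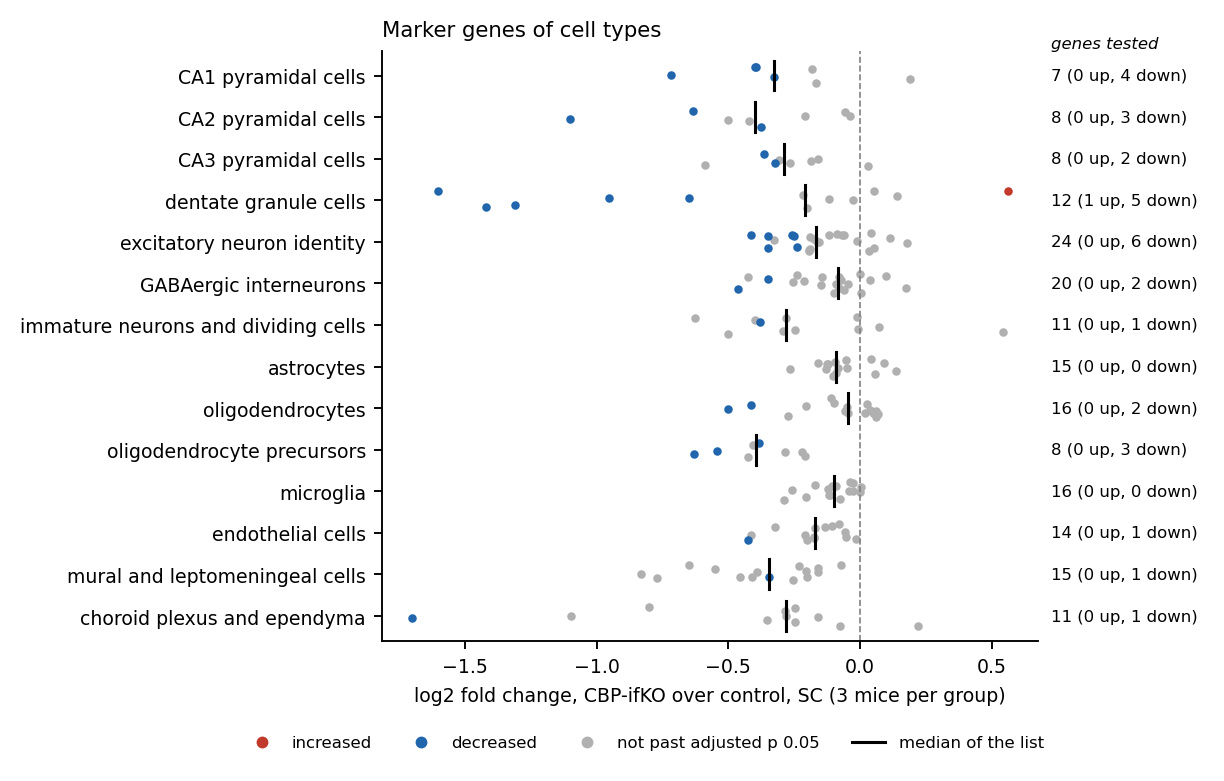
Each point is 1 marker gene, placed by its log2 fold change between 3 CBP-ifKO and 3 control mice in SC, in 14 lists of cell type markers; black bars are list medians and the numbers at the right give genes tested and genes past the test. With all 6 mice, medians are lowest for CA2 neurons and oligodendrocyte precursors, both at -0.40, but without CBP-ifKO mouse 3 the mural list is lower, at -0.72; astrocytes and microglia have 0 genes past the test.

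Among neuropeptides and proteins of dense core vesicles 7 of 26 fell and 0 rose (median -0.16, or -0.26 without CBP-ifKO mouse 3 and -0.10 without control mouse 3). Grp, the gastrin-releasing peptide, read 26.6, 25.2 and 28.1 CPM in controls and 12, 14.2 and 14.2 CPM in CBP-ifKO mice. The groups were well apart (log2 fold change -0.99, adjusted p = 0.000127). Besides Penk (-1.03, overlapping A830012C17Rik), Pdyn, Cck and Sst, the list lost Vgf (-0.40), a granin-like peptide precursor, and Pcsk1, the prohormone convertase that cuts peptide precursors (-0.36). Penk, Pdyn, Cck and Grp were kept. Without CBP-ifKO mouse 1, 2 or 3 the list held 5, 4 and 4 calls, and without control mouse 1, 2 or 3 it held 5, 9 and 4. Of 10 neurotrophins and receptors 2 fell (median -0.21), Bdnf (-0.65), which overlaps Gm45346, and Sorcs2 (-0.29), a receptor for proneurotrophins. Bdnf was kept, while Sorcs2 lost its call without any one of the CBP-ifKO mice or control mouse 3, which left 1 call.

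Among secreted organisers of synapses, 4 of 10 pentraxins, C1q-like proteins and cerebellins fell and 0 rose (median -0.17, or -0.28 without CBP-ifKO mouse 1). Besides C1ql2, C1ql1 and Nptx2 (-1.01), the list includes Nptxr, the neuronal pentraxin receptor, which read 1016, 984 and 1059 CPM in controls and 826, 867 and 871 CPM in CBP-ifKO mice. All controls were higher, by a small margin (log2 fold change -0.25, adjusted p = 0.0118), and its exons overlap those of Npcd. Nptx2 and C1ql2 were kept. The list held 2, 2 and 3 calls without CBP-ifKO mouse 1, 2 or 3 and 3, 4 and 2 without control mouse 1, 2 or 3.

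Immediate early genes, which mark recent neuronal activity and are classical CREB targets, had 2 decreases among 21 (median -0.06). Egr3, an early growth response factor, read 114, 102 and 130 CPM in controls and 89.4, 90.5 and 80.3 CPM in CBP-ifKO mice, without overlap (log2 fold change -0.41, adjusted p = 0.0143). Jun, the AP-1 subunit that overlaps Junos, fell by 0.35 (adjusted p = 0.0391). Fos, its AP-1 partner, read 4.82, 11.8 and 47.3 CPM in controls and 23.7, 24.2 and 26.5 CPM in CBP-ifKO mice. The controls spanned a range that enclosed all CBP-ifKO mice (adjusted p = 0.862). Control mouse 3 decides the sign of the list, whose median is 0.38 without it, with 7 calls. Without CBP-ifKO mouse 1, 2 or 3 there were 1, 1 and 0 calls, and without control mouse 1 or 2 there were 1 and 5.

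Genes that dampen or report the MAP kinase pathway fell in 5 of 15 cases and rose in 0 (median -0.23). Etv4, an ETS factor induced by ERK signalling, read 11.7, 12.3 and 14.5 CPM in controls and 8.13, 6.93 and 6.67 CPM in CBP-ifKO mice. The groups did not overlap (log2 fold change -0.83, adjusted p = 0.00281). Spred2, an inhibitor of Ras to Raf signalling, fell by 0.40 (adjusted p = 0.00437), and both were kept. Dusp4, a phosphatase of MAP kinases, fell by 0.56, Etv5 by 0.33 and Etv1 by 0.26. For the list, leaving out CBP-ifKO mouse 1, 2 or 3 gave 3, 3 and 2 calls, and leaving out control mouse 1, 2 or 3 gave 3, 7 and 2.

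Among 14 genes whose symbols begin with Camk, kinases, their inhibitors and the methyltransferase gene Camkmt, 5 fell and 1 rose (median -0.25): Camk1g, Camkk1, Camkk2, the pseudokinase Camkv and the inhibitor Camk2n1 fell, and the other inhibitor Camk2n2 rose. Camk2n1 read 883, 812 and 838 CPM in controls and 723, 638 and 617 CPM in CBP-ifKO mice, whereas Camk2n2 read 43.6, 40.9 and 45.3 CPM in controls and 60.1, 58.9 and 55.4 CPM in CBP-ifKO mice. The inhibitors of CaMKII thus moved in opposite directions, at -0.36 and 0.43 on the log2 scale. Camk2n1 lost its call without CBP-ifKO mouse 2 or 3, which left 5 calls in the list, while the other 5 calls were kept. In the list of adenylyl cyclases, protein kinase A subunits and phosphodiesterases 2 of 38 fell (5.26%, near the 5.52% of all genes that passed; median -0.07) and neither was kept, Pde9a (-0.50), a cGMP phosphodiesterase, and Adcy5 (-0.22), a cyclase. Without CBP-ifKO mouse 2 or control mouse 3 that list held 0 calls, and it held 1 without CBP-ifKO mouse 1 or 3, 2 without control mouse 1 and 4 without control mouse 2.

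Among 18 RGS proteins 4 fell and 1 rose (median -0.13). Rgs4, which shortens Gq and Gi signals, read 204, 208 and 243 CPM in controls and 145, 139 and 154 CPM in CBP-ifKO mice. Its groups were apart (log2 fold change -0.58, adjusted p = 0.00107), and it was kept like Rgs14. Rgs8 (-0.28, overlapping Gm29529) and Rgs5 also fell, and Rgs11 (0.39, overlapping Arhgdig) rose. The RGS list held 3, 4 and 3 calls without CBP-ifKO mouse 1, 2 or 3 and 5, 6 and 4 without control mouse 1, 2 or 3. Among 83 exchange and activating factors of small GTPases 5 fell (6.02%, against 4.02% of all genes) and 1 rose (1.20%, against 1.51%; median -0.10). Rasal1, which switches Ras off in response to calcium, read 126, 112 and 118 CPM in controls and 81.1, 77.2 and 86.2 CPM in CBP-ifKO mice, a clear separation (log2 fold change -0.55, adjusted p = 0.000699). Arhgap27, a GTPase-activating protein that overlaps Arhgap27os1 and Arhgap27os2, rose by 0.61, and both were kept. Plekhg5 (-0.34), Rasgrp1 (-0.23) and Arhgef4 (-0.21, overlapping Fam168b) fell, and this list held 5, 2 and 2 calls without CBP-ifKO mouse 1, 2 or 3 and 4, 10 and 5 without control mouse 1, 2 or 3.

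Potassium channel genes fell in 20.0% of cases against 4.02% of all genes, 16 of 80 with 0 increases (median -0.14), and 66 of the 80 were below 0. Kcnip3, a calcium sensor that binds A-type channels and is also known as the repressor DREAM, read 105, 98.8 and 102 CPM in controls and 68.5, 57.7 and 61.5 CPM in CBP-ifKO mice. The groups were far apart (log2 fold change -0.70, adjusted p = 0.000166). Its relative Kcnip2 read 253, 240 and 262 CPM in controls and 179, 185 and 179 CPM in CBP-ifKO mice, again without overlap (-0.47, adjusted p = 0.000522). Kcnf1, a silent subunit of Kv2 channels, fell by 0.44, and Kcnh3, a channel of the EAG family that overlaps Mcrs1, fell by 0.42. All of these were kept. Kcnq3, a subunit of the M-current, fell by 0.36 and Kcnab1, an auxiliary subunit that overlaps A330015K06Rik, by 0.27. In fits without CBP-ifKO mouse 1, 2 or 3 the count was 4, 6 and 6, and without control mouse 1, 2 or 3 it was 11, 18 and 9.

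Sodium and calcium channel genes followed, with 7 of 35 decreased and 0 increased (median -0.09). Cacna1g, the pore of a T-type calcium channel, read 92.3, 114 and 94.0 CPM in controls and 68.9, 62.5 and 63.9 CPM in CBP-ifKO mice. All controls were higher, and it was the member that was kept (log2 fold change -0.62, adjusted p = 0.00159). Another T-type gene, Cacna1i (-0.27), the auxiliary subunit genes Cacng4 (-0.37), Cacnb1 (-0.31, overlapping Gm11629) and Cacnb3 (-0.26), and the sodium channel subunit gene Scn3b (-0.26) fell too. The list held 2, 2 and 2 calls without CBP-ifKO mouse 1, 2 or 3 and 5, 11 and 1 without control mouse 1, 2 or 3.

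Of 17 ionotropic glutamate receptor genes 2 fell (median -0.11, or -0.06 without control mouse 2). Grin2a, an NMDA receptor subunit, read 438, 434 and 417 CPM in controls and 342, 353 and 335 CPM in CBP-ifKO mice, with no overlap, and was kept (log2 fold change -0.32, adjusted p = 0.00322). Grid1, a delta receptor bound by cerebellins, fell by 0.31 and lost the call without CBP-ifKO mouse 1 or 2, leaving 1. AMPA receptor genes showed smaller differences, -0.14 for Gria1 (adjusted p = 0.159) and 0.09 for Gria2 (adjusted p = 0.386). Of 15 GABA receptor genes 1 fell (median -0.08). It was Gabra5, a subunit of extrasynaptic receptors in hippocampus that overlaps Gm9962, and it read 244, 217 and 223 CPM in controls and 153, 164 and 155 CPM in CBP-ifKO mice. That is a wide separation, and it was kept (log2 fold change -0.54, adjusted p = 0.000447). Metabotropic glutamate receptors had 0 calls among 7 in edgeR (median -0.15, or -0.29 without CBP-ifKO mouse 1 and -0.10 without control mouse 1), with 3 at an unadjusted p under 0.05, 1 call in DESeq2, and 1 call without control mouse 2.

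Receptors for monoamines, acetylcholine and peptides fell in 6 of 46 cases and rose in 0, with 40 of 46 below 0 and a median of -0.29. Htr5b, a serotonin receptor, read 8.68, 6.74 and 8.96 CPM in controls and 3.83, 4.71 and 4.39 CPM in CBP-ifKO mice. Each CBP-ifKO mouse was lower than each control (log2 fold change -0.92, adjusted p = 0.00482). With Htr1a, Sstr1 and Sstr3 it was kept. Sstr2, another somatostatin receptor, fell by 0.54 (adjusted p = 0.0262), so that the decreases included both Sst itself and 3 of its receptors, next to Npy2r. The receptor list held 6, 4 and 5 calls without CBP-ifKO mouse 1, 2 or 3 and 6, 8 and 5 without control mouse 1, 2 or 3.

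At the presynaptic side 6 of 41 genes of vesicle release fell and 0 rose (median -0.10). Cplx2, a complexin that clamps and promotes fusion, read 1487, 1496 and 1514 CPM in controls and 1131, 1150 and 1124 CPM in CBP-ifKO mice. Both groups were tight, and they did not overlap (log2 fold change -0.40, adjusted p = 0.000447). Sv2c, a vesicle glycoprotein, fell by 0.79 and Syt17, a synaptotagmin relative, by 0.44, and these were kept with Cplx2. The SNARE gene Snap25 read 2730, 2502 and 2599 CPM in controls and 2214, 2223 and 2154 CPM in CBP-ifKO mice (log2 fold change -0.25, adjusted p = 0.0113). Syn2, a synapsin that overlaps Timp4, fell by 0.24 and Syt13 by 0.23. Leaving out CBP-ifKO mouse 1, 2 or 3 gave 3 calls each, and leaving out control mouse 1, 2 or 3 gave 6, 10 and 5.

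Postsynaptic scaffold genes fell in 8 of 20 cases and rose in 0 (median -0.21), with 19 of 20 below 0. Dlg4, which encodes the scaffold PSD-95, read 722, 688 and 681 CPM in controls and 573, 564 and 540 CPM in CBP-ifKO mice. All controls lay above all CBP-ifKO mice (log2 fold change -0.32, adjusted p = 0.00374). Shank3, a deeper layer scaffold that overlaps Gm15609, read 247, 235 and 220 CPM against 187, 187 and 178 CPM, also without overlap (-0.35, adjusted p = 0.00514). Both were kept. Other decreases included Dlgap4 (-0.34, overlapping 4930405A21Rik), Iqsec2 (-0.27), Sipa1l1 (-0.30), Dlgap3 and Shank1, proteins that link receptors to small GTPases or to actin. The list held 5, 3 and 2 calls without CBP-ifKO mouse 1, 2 or 3 and 5, 9 and 7 without control mouse 1, 2 or 3. The synaptic adhesion list was drawn by symbol and also holds Lrrc40 to Lrrc43, Lrrc45 to Lrrc47 and Lrrc49, which are not such proteins, so its count and median are not those of the family alone. It had 3 decreases among 46 (6.52%, near the 5.52% of all genes that passed; median -0.06), Lingo3 (-0.39), Cntnap5a (-0.26) and the neurexin gene Nrxn2 (-0.23), and held 0 calls without any one of the CBP-ifKO mice and 2, 5 and 1 without control mouse 1, 2 or 3.

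Clustered protocadherins, which give neurons a surface identity, had a median of 0.14 over 53 genes with 40 of them above 0, though the median was 0.08 without CBP-ifKO mouse 1, 0.22 without control mouse 2 and -0.01 in EE. The calls, 5.66% of the list, are near the 5.52% of all genes: 2 rose, Pcdhb7 (0.48) and Pcdha5 (0.70), and 1 fell, Pcdhgc5 (-0.34). Pcdha5 and Pcdhgc5 share exons with the other genes of their clusters. None of the 3 was kept, and the list held 1, 0 and 0 calls without CBP-ifKO mouse 1, 2 or 3 and 1, 6 and 1 without control mouse 1, 2 or 3.

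**Figure D3:**
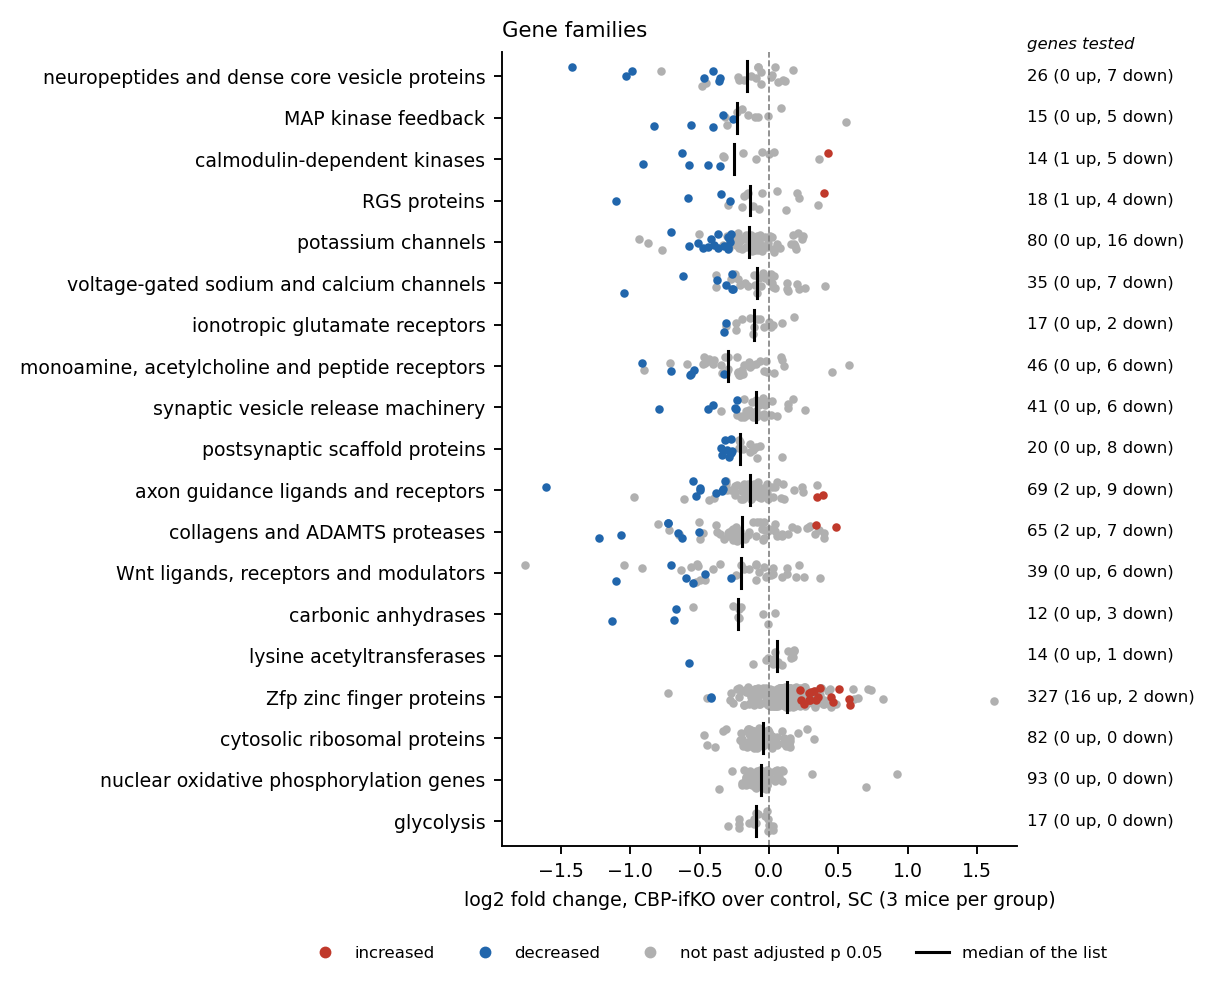
Each point is 1 gene, placed by its log2 fold change between 3 CBP-ifKO and 3 control mice in SC, in 19 gene families; black bars are medians and the numbers at the right give genes tested and genes past the test. Synaptic, channel and receptor families lie mostly below 0, Zfp zinc finger genes lie mostly above it with a median of 0.13, and ribosomal, oxidative phosphorylation and glycolysis genes have 0 past the test.

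Axon guidance genes had 9 decreases and 2 increases among 69 (median -0.14). Efnb3, a transmembrane ephrin of midline and synapse, read 175, 172 and 175 CPM in controls and 113, 122 and 128 CPM in CBP-ifKO mice. The controls were nearly equal and all higher (log2 fold change -0.52, adjusted p = 0.000497). Efna3, which overlaps Gm15998, fell by 0.55 and the secreted semaphorin gene Sema3e by 0.50, while the plexin gene Plxna3 rose by 0.39, and these were kept with Efnb3. Sema7a (-0.38) and the netrin receptor gene Unc5a (-0.32, overlapping Hk3) fell as well. The guidance list held 6, 5 and 5 calls without CBP-ifKO mouse 1, 2 or 3 and 9, 10 and 8 without control mouse 1, 2 or 3.

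Among 65 collagens and ADAMTS proteases 7 fell and 2 rose (median -0.19, or -0.08 without CBP-ifKO mouse 2 and -0.12 without control mouse 2). The list shares Col1a1, Col1a2 and Col3a1 with the mural and leptomeningeal markers, whose median was -0.35, and the parts of cell number and level per cell were not told apart. Col12a1, a collagen that sits on fibrils, read 10.8, 11.8 and 11.3 CPM in controls and 4.72, 5.13 and 6.24 CPM in CBP-ifKO mice. Its groups were far apart (log2 fold change -1.07, adjusted p = 0.000798). Adamts2, a procollagen protease, fell by 0.50 and the fibrillar collagen gene Col5a1 by 0.66, and these were kept with Col12a1. The exons of Col5a1 overlap an opposite-strand gene. Adamts1, a protease of proteoglycans, fell by 0.73, and Col11a1 (0.48) and Adamts10 (0.34) rose. The list held 5, 6 and 5 calls without CBP-ifKO mouse 1, 2 or 3 and 7, 10 and 5 without control mouse 1, 2 or 3. Of 20 brain proteoglycans and thrombospondins 3 fell (median -0.17), Thbs3, which was kept, Ptprz1 (-0.25) and neurocan, Ncan (-0.24). That list held 1 call without any one of the CBP-ifKO mice or control mouse 3, and 3 and 5 without control mouse 1 or 2.

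Of 39 Wnt genes 6 fell and 0 rose (median -0.20). Wnt4 read 17.1, 15.6 and 20.0 CPM in controls and 7.71, 6.45 and 10.2 CPM in CBP-ifKO mice. Every control was above every CBP-ifKO mouse (log2 fold change -1.10, adjusted p = 0.00233). Wnt7b, which overlaps AU022754, fell by 0.60 and was kept with Wnt4. Wnt2 (-0.71), Wnt7a (-0.46), the receptor gene Fzd8 (-0.55) and the secreted modulator gene Dkk3 (-0.27) fell too, so that 4 of the 6 were ligands. For the Wnt list the counts were 2, 3 and 2 without CBP-ifKO mouse 1, 2 or 3 and 2, 9 and 3 without control mouse 1, 2 or 3.

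In the TGF-beta, BMP and activin list 6 of 41 genes fell and 0 rose (median -0.09). Inhba, the activin subunit that synaptic activity induces, read 8.09, 8.93 and 7.62 CPM in controls and 4.84, 4.09 and 5.34 CPM in CBP-ifKO mice. The groups were apart (log2 fold change -0.78, adjusted p = 0.00746). Acvr1c, a receptor of the activin family that overlaps Gm13544, fell by 0.69, and both were kept. The receptor genes Acvr1 (-0.37) and Tgfbr1 (-0.31), the transducer gene Smad3 (-0.32) and the BMP antagonist gene Nog (-0.80) also fell, and the list held 4, 3 and 4 calls without CBP-ifKO mouse 1, 2 or 3 and 4, 9 and 4 without control mouse 1, 2 or 3.

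In the IGF list 2 of 10 genes fell and 1 rose (median -0.32, or -0.17 without CBP-ifKO mouse 2 or control mouse 3), all of them binding proteins that hold the factor outside cells. Igfbp4 read 96.7, 86.3 and 83.7 CPM in controls and 51.4, 49.0 and 54.0 CPM in CBP-ifKO mice. The separation was wide, and the call was kept (log2 fold change -0.79, adjusted p = 9.16e-05). Igfbp6 fell by 0.71, whereas Igfbp5 read 234, 230 and 193 CPM in controls and 331, 286 and 262 CPM in CBP-ifKO mice and rose by 0.42. The IGF list held 2, 1 and 3 calls without CBP-ifKO mouse 1, 2 or 3 and 4, 4 and 1 without control mouse 1, 2 or 3.

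The retinoic acid list had 3 decreases among 16 (median -0.18, or -0.09 and -0.28 without CBP-ifKO mouse 1 or 3 and -0.10 without control mouse 2): Aldh1a3, an enzyme that makes retinoic acid, and the receptor genes Rxrg (-0.69) and Rara (-0.43). Aldh1a3 read 1.22, 1.59 and 1.71 CPM in controls and 0.418, 0.555 and 0.476 CPM in CBP-ifKO mice. Even at this low level the groups did not overlap (log2 fold change -1.64, adjusted p = 0.00833), though without control mouse 3 its adjusted p was 0.0516. That list held 1 call without any one of the CBP-ifKO mice, and 2, 3 and 0 without control mouse 1, 2 or 3. Carbonic anhydrases, which balance bicarbonate and protons, had 3 decreases among 12 (median -0.22), Car12, Car4 (-0.68) and Car7 (-0.67), all kept. Car4 read 42.2, 42.2 and 48.5 CPM in controls and 26.2, 29.3 and 27.5 CPM in CBP-ifKO mice, and again no mouse crossed over. Solute carriers had 7 increases and 7 decreases among 271 (median -0.02), which is 2.58% each, against 1.51% increases and 4.02% decreases over all genes. The mitochondrial glutamate carrier gene Slc25a22 fell by 0.35 and was kept, while Slc26a11 (0.55) and Slc25a40 (0.40) rose and Slc26a4 (-0.43) fell. The solute carrier list held 2, 4 and 4 calls without CBP-ifKO mouse 1, 2 or 3 and 9, 38 and 2 without control mouse 1, 2 or 3.

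Of 14 lysine acetyltransferases 1 passed, Crebbp (median 0.06), and the list held 4 calls without control mouse 2 and 1 in each of the other fits without a mouse. Among 18 deacetylases Sirt1, an NAD-dependent enzyme that overlaps Gm16145, rose by 0.38, and Hdac5 (-0.23), a class IIa enzyme, and Hdac11 (-0.23), which also shares exons on the opposite strand, fell (median 0.03), which makes 16.7% of the list against 5.52% of all genes. Sirt1 read 23.3, 22.3 and 25.2 CPM in controls and 32.5, 28.4 and 31.3 CPM in CBP-ifKO mice, with all CBP-ifKO mice higher. None of the 3 was kept, and that list held 0, 1 and 0 calls without CBP-ifKO mouse 1, 2 or 3 and 1, 3 and 1 without control mouse 1, 2 or 3. Among 58 histone methyltransferases and demethylases (median 0.06) 2 passed (3.45%), and the demethylase gene Kdm4c was the 1 that rose. It read 37.1, 37.9 and 37.5 CPM in controls and 43.1, 43.9 and 45.8 CPM in CBP-ifKO mice, a small step without overlap (log2 fold change 0.24, adjusted p = 0.0363). Kdm4c lost its call without any one mouse but control mouse 2, where the list held 12 calls.

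The CREB family and its coactivators had 2 decreases among 13 (median -0.04), Crebbp and Crtc1 (-0.24), a calcium-regulated coactivator of CREB that lost its call in all fits without a mouse except that without control mouse 2. Creb1 itself differed by -0.04 (adjusted p = 0.77). Histone genes had 1 decrease among 14 tested of 67 (median -0.21, or -0.14 without CBP-ifKO mouse 2 and -0.04 without control mouse 2), Hist1h2be (-0.56, adjusted p = 0.0472), whose exons overlap those of neighbouring histone genes. With CBP-ifKO counts halved it did not pass (adjusted p = 0.0517), and without CBP-ifKO mouse 1 or 2 or control mouse 3 the histone list held 0 calls.

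Zinc finger genes of the Zfp series, many of them KRAB repressors, leaned upward. The list takes symbols of Zfp and digits alone, so Zfp354c, a leading increase, is not in it. Of 327 tested, 269 were above 0 (median 0.13), 16 rose and 2 fell. Zfp111 read 11.1, 11.8 and 10.6 CPM in controls and 15.7, 15.8 and 14.2 CPM in CBP-ifKO mice. All CBP-ifKO mice were higher (log2 fold change 0.45, adjusted p = 0.0163). Zfp383 (0.34), Zfp157 (0.30) and Zfp956 (0.29, sharing exons with Zfp783) also rose. Zfp365, a centrosome and genome stability protein, went the other way, at 423, 415 and 382 CPM in controls and 325, 314 and 275 CPM in CBP-ifKO mice. It had no overlap and was the member of the list that was kept (-0.42, adjusted p = 0.0049), and Zfp467 fell by 0.42. The increases depend on the mice compared: without CBP-ifKO mouse 1, 2 or 3 the list held 2, 2 and 6 calls, and without control mouse 1, 2 or 3 it held 7, 38 and 3. Increases made up 4.89% of the list, against 1.51% of all genes.

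Lists of basic cell functions had few calls or 0. Cytosolic ribosomal proteins had 0 calls among 82 in edgeR (median -0.05), with 8 at an unadjusted p under 0.05 and 0 in DESeq2. Mitochondrial ribosomal proteins had 0 among 77 (median 0.01), with 3 at an unadjusted p under 0.05 and 0 in DESeq2. Nuclear genes of oxidative phosphorylation had 0 among 93, with 10 at an unadjusted p under 0.05 and 1 call in DESeq2, although 78 of the 93 were below 0 (median -0.06). The mitochondrial genome had 0 among 7 protein-coding genes tested of 13 (median -0.08), with 1 at an unadjusted p under 0.05 and 0 in DESeq2. Glycolysis had 0 among 17 (median -0.09), with 5 at an unadjusted p under 0.05 and 3 in DESeq2. Without control mouse 2 these lists held 6, 0, 14, 2 and 6 calls in that order.

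Stress and hormone lists were similar. The ATF4 response had 0 calls among 14 in edgeR (median -0.01), with 1 at an unadjusted p under 0.05 and 0 in DESeq2, and 1 call without control mouse 2. Glucocorticoid targets and receptors had 0 among 11 (median -0.17, or -0.10 and -0.07 without control mouse 2 or 3), with 6 at an unadjusted p under 0.05 and 0 in DESeq2. Heat shock proteins had 2 decreases among 15 (median -0.13), the chaperone genes Hspa1b (-1.07) and Hsph1 (-0.32), both kept. Hsph1 read 402, 407 and 416 CPM in controls and 331, 332 and 319 CPM in CBP-ifKO mice, a small but clean step down (adjusted p = 0.00302). In the interferon and antigen presentation list 1 of 18 rose, Stat2 (0.26), a signal transducer of type I interferon (median -0.17, or -0.08 without CBP-ifKO mouse 3 and -0.10 without control mouse 1). Stat2 lost its call without any one mouse but control mouse 2, where the list held 2 calls.

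Cholesterol synthesis had 1 decrease among 22, Srebf2 (-0.27), the master factor of the pathway (median -0.03), which lost its call without CBP-ifKO mouse 2 or 3, where the list held 0 calls, or without control mouse 1, where other genes gave 2. The circadian list had 2 decreases among 17 (median -0.09). Arntl, the clock factor BMAL1 that overlaps Gm45355, read 47.6, 43.8 and 48.4 CPM in controls and 36.2, 34.3 and 37.4 CPM in CBP-ifKO mice. The groups did not overlap (log2 fold change -0.37, adjusted p = 0.00783), and the call was lost without CBP-ifKO mouse 2 at adjusted p = 0.0519. Bhlhe41, a clock repressor that overlaps Gm43909, fell by 0.44, and the list held 1, 0 and 1 calls without CBP-ifKO mouse 1, 2 or 3 and 1, 4 and 3 without control mouse 1, 2 or 3. Tubulins, kinesins and microtubule proteins had 6 decreases among 62 (median -0.05): Tubb2b (-0.42), which was kept, the microtubule stabiliser gene Map4 (-0.26), the destabiliser genes Stmn2 (-0.23) and Stmn4 (-0.22), and the tubulin genes Tuba4a (-0.28, overlapping Stk16) and Tuba1a (-0.21). This list held 2, 2 and 1 calls without CBP-ifKO mouse 1, 2 or 3 and 2, 14 and 2 without control mouse 1, 2 or 3.

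By position and type, the X chromosome held 16 increased (2.75%) and 9 decreased genes (1.55%) of 581, which is more increases and fewer decreases than over all genes. Of 14717 protein-coding genes 249 rose (1.69%) and 668 fell (4.54%), and of 1797 long noncoding RNAs 9 rose (0.501%) and 25 fell (1.39%), against 1.51% and 4.02% of all genes. Within 5 Mb of Crebbp on chromosome 16, 50 genes were tested, of which 1 rose, Slx4 (0.35), and 3 fell, Tmem114 (-1.80), Gm30371 (-1.23) and Ubald1 (-0.24). Tmem114, a membrane protein, read 4.53, 3.14 and 3.81 CPM in controls and 1.02, 1.53 and 0.794 CPM in CBP-ifKO mice. Every control was higher, and Tmem114 and Gm30371 were kept, while Slx4 and Ubald1 lost their calls without CBP-ifKO mouse 1 (adjusted p up to 0.0978 and 0.193 over the 6 fits). Of 4 tested genes listed as possible traces of the Cre driver, Camk2a and Slc6a7 did not pass, 2 rose and 0 fell (median 1.32): Esr1 (3.96), the estrogen receptor gene, a form of whose ligand-binding domain is fused to the recombinase, and Arsi (2.6), the neighbour of Camk2a. Within 1 Mb of Camk2a 27 genes were tested, and Arsi was the 1 that passed.

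The same genotypes in EE give a view in other animals, since no mouse is shared, although their CBP-ifKO counts are even as well. There 805 of 17625 genes passed (4.57%), 182 increased (1.03%) and 623 decreased (3.53%). Of the genes that rose in SC, 260 of 262 also had a positive difference in EE, and of those that fell, 696 of 703 had a negative one; the sign was the same in both housings for 72.0% of all genes tested and 70.4% of genes not called in SC. Genes that passed in both housings in the same direction numbered 493, which is 50.9% of the SC calls and 61.2% of the EE calls, and 0 passed in opposite directions. Of the decreases 405 of 703 (57.6%) fell in EE too, where 3.53% of all genes fell, and of the increases 88 of 262 (33.6%) rose there too, where 1.03% of all genes rose; the shares were not tested against each other. Over all 17250 genes tested in both, the log2 fold changes had a Pearson correlation of 0.476 and a Spearman correlation of 0.509, as a description across genes that are not independent. In the interaction of genotype and housing 0 of 18251 genes (0.0%) passed in edgeR (smallest adjusted p 0.9998), with 574 at an unadjusted p under 0.05 and 0 calls in DESeq2, though 110 passed in edgeR without a filter on low counts. Of the EE counts, 431, 447 and 286 genes passed without CBP-ifKO mouse 1, 2 or 3 of EE, and 701, 1016 and 285 without control mouse 1, 2 or 3 of EE.

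Some lists looked alike in both housings and others had different medians. Dentate markers had 7 decreases in EE (median -0.54) and 5 in SC (median -0.21), postsynaptic scaffolds 11 (median -0.29) and 8, potassium channels 13 (median -0.19) and 16, and vesicle release genes 10 (median -0.11) and 6. Mural and leptomeningeal markers had a median of 0.39 in EE with 2 increases, against -0.35 in SC. Wnt genes had 3 decreases in EE and a median of 0.04, and Zfp genes had 7 increases and a median of 0.11. Among leading genes Rgs14 fell by 1.24 in EE and Sept9 by 0.74, while Adi1 differed by 0.33 (adjusted p = 0.416) and Gm6472 by 0.59 (adjusted p = 0.676). No gene passed the interaction test, so none of these differences between housings is shown.

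**Figure D4:**
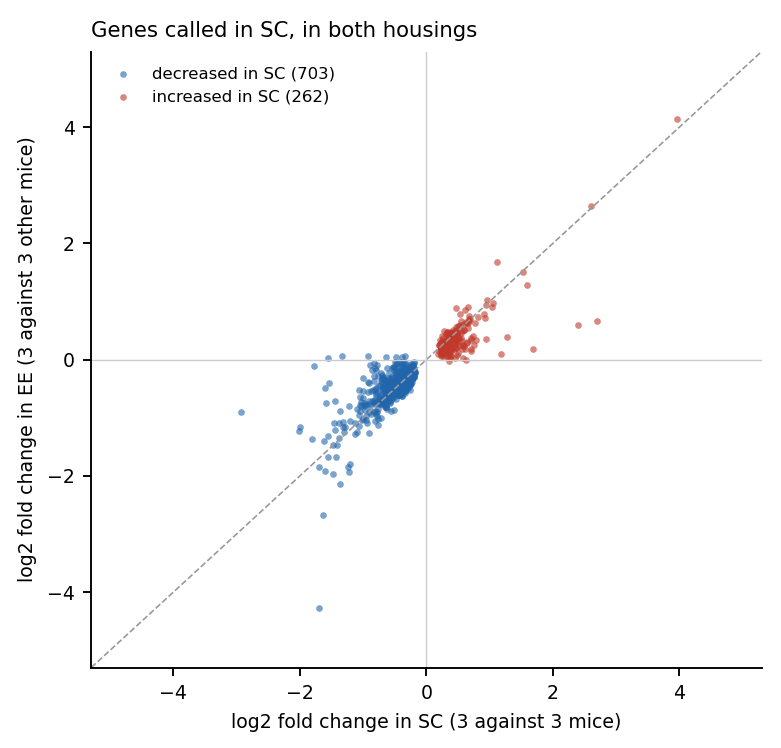
Each point is 1 gene that rose (red) or fell (blue) in SC and was tested in both housings, with its log2 fold change in 3 CBP-ifKO and 3 control mice in SC on the horizontal axis and in 6 other mice in EE on the vertical axis; the dashed line marks equal changes. Of 262 increased genes 260 lie above 0 in EE, and of 703 decreased genes 696 lie below 0.

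Promoter sequence was read for some of the decreased genes because CBP is recruited by CREB, which binds the cAMP response element TGACGTCA, a palindrome that reads the same on both strands. RefSeq windows of 250 bases before the gene start (GRCm38.p6) were at hand for 498 of 704 decreased genes (70.7%), 218 of 264 increased genes (82.6%) and 12442 of 17532 tested genes (71.0%), too few to compare shares. The full element stood in 508 of 32851 windows of that length (1.55%), a share over windows of all genes, called or not, that is not comparable with a share of genes. With the bases after the gene start included, 3.33% of tested genes with a window, 3.01% of decreased and 2.75% of increased ones had it, which describes the windows at hand. The shorter form TGACG, on either strand and not marked below, was in 33.0%, 27.5% and 28.9% in that order. Of the 14 decreased genes with the element before the start, a set of 4 chosen after their values were seen is shown, because they include a leading decrease, Ptpru, and a peptide, its receptor and the convertase that processes peptide precursors, Sst, Sstr2 and Pcsk1. The windows are chr4:131838279-131838528 (minus strand) for Ptpru, chr16:23890845-23891094 (minus strand) for Sst, chr11:113619077-113619326 (plus strand) for Sstr2 and chr13:75089607-75089856 (plus strand) for Pcsk1. Capitals mark the element, which begins 41, 48, 58 and 78 bases before the gene start in that order. A match is a description of the letters, and binding was not measured.
Ptpru: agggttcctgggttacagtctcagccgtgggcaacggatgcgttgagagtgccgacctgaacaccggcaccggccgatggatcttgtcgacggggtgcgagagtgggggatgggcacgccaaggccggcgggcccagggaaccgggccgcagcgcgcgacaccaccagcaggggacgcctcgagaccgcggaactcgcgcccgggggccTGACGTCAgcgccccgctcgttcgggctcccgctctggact
Sst: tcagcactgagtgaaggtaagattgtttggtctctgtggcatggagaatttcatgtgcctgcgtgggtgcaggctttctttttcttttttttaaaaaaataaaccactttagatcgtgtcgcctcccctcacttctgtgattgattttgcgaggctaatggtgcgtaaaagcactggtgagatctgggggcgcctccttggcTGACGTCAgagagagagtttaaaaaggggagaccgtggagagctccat
Sstr2: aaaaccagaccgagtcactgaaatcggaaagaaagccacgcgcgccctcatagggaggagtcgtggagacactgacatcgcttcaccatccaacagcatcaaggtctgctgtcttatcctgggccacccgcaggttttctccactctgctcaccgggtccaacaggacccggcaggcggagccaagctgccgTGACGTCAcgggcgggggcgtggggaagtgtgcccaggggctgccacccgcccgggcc
Pcsk1: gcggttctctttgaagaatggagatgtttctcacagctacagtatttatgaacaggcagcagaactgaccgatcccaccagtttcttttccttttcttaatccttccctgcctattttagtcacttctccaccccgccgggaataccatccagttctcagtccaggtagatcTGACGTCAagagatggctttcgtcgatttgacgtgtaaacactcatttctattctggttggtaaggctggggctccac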

How the data were processed

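The deposited table holds raw counts per gene in whole hippocampus of 12 mice and the summed exon length of each gene, which the authors give as Length in bases. The authors trimmed the 50 bp single-end reads (Trim Galore 0.6.4, FastQC 0.11.8), aligned them with STAR 2.6.1, merged the 2 runs of each mouse and counted exonic reads with Rsubread; the deposited counts are not normalised. Here they were analysed in R 4.3.3. Genes passing filterByExpr in the 6 SC mice (17532 of 55471) were scaled by TMM and tested with the quasi-likelihood F test of edgeR 4.0.16 (limma 3.58.1), with p adjusted by Benjamini and Hochberg over all genes tested and a threshold of 0.05. DESeq2 1.42.0 was the other tool. EE mice were fitted alone, and the interaction over all 12 mice. Library totals of the 6 SC mice ran from 27056070 to 36882312 counts, on which 3 counts correspond to between 0.0813 and 0.111 CPM. With CBP-ifKO counts halved the totals of the CBP-ifKO mice in SC were 14291105 to 18441156, and 3 counts a higher CPM. Symbols and positions came from GENCODE M21 (GRCm38).

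Alternatives were halved counts of CBP-ifKO mice, halved counts thinned to the smallest library, DESeq2 and its size factors, no filter or 1 CPM, all 12 mice, a replicate block and each SC mouse left out. Members and lists were chosen with earlier results of these data known. Families defined by symbol hold protein-coding genes only. Named genes are Crebbp and Ep300, in each direction the 15 genes lowest in p whose groups do not overlap, leaving out Camk genes and Esr1, Arsi, Bdnf, Nptx2, Penk, Pdyn, C1ql2, Htr1a, Sstr1 and Sstr3, up to 6 members past the threshold and the first 2 members of each list, and every member of a count of 5 or fewer; a few members are left unnamed. Pcsk1, Dlgap3, Shank1 and the genes under the other observations were chosen after their values were seen.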

Additional observations from a re-analysis of the deposited data

How the results depend on the processing

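Of 216 named genes past the threshold, 187 passed under all 9 alternatives that keep the 6 SC mice, 103 passed in all 6 fits without 1 mouse, and 0 reversed. Of 549 list medians under the former alternatives, 541 moved by less than the spread between mice (1 SD). Without 1 mouse some medians moved further. Genes changed in SC numbered 968, but 1300 in DESeq2 (390 increased, 910 decreased), 1512 without a filter on low counts (1158 decreased), and 399 to 1908 when 1 mouse was left out (67 to 768 increased, 319 to 1140 decreased). Genes changed in EE numbered 805, but 1296 in DESeq2, 1293 with all 12 mice in the fit and 1677 without a filter, and 285 to 1016 when 1 mouse was left out. The interaction had 0 genes, but 110 without a filter. The causes of these shifts were not tested. With a replicate block, 1041 genes passed in SC and 1089 in EE. An alternative added after seeing the data, DESeq2 with CBP-ifKO counts halved, passed 1068 genes in SC. With 3 mice per group and 3 counts as the least that can be told from 0, genes under about 0.111 CPM could not be compared in SC. That limit is on the deposited totals of the SC mice, and with CBP-ifKO counts halved it lies higher.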

Other observations

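Several calcium sensors, chosen after their values were seen, fell in SC. Calm2 (log2 fold change -0.23) and Calm3 (-0.28), which encode calmodulin, fell. Calm3 read 1496, 1389 and 1414 CPM in controls and 1160, 1217 and 1171 CPM in CBP-ifKO mice. All controls were above all CBP-ifKO mice. All 5 visinin-like sensors fell (median -0.32), Ncs1, Hpcal4, Hpca, which overlaps Tmem54, Vsnl1 and Hpcal1, and 2 of them fell in EE. Hpcal4 read 1216, 1268 and 1251 CPM in controls and 922, 861 and 901 CPM in CBP-ifKO mice, a wide gap for so abundant a gene (-0.48), and it was kept. Of 3 Cabp genes tested, which encode calmodulin-like binding proteins, 2 fell, Cabp1 (-0.45) and Cabp7 (-0.51).

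Other families seen only after the values were known include septins, of which 4 of 11 fell (median -0.20), Sept3, Sept5, Sept8 and Sept9, and LIM-only transcription cofactors, of which 3 of 4 fell (median -0.38), Lmo1, Lmo2 and Lmo3. Of 11 alpha-mannosidases, which trim sugar chains, 3 rose, Man2b1, Man2b2 and Man2c1, and 1 fell, Man1a. Of 20 tested genes of the mitochondrial chromosome 4 fell (20.0%, against 4.02% of all genes), 2 of them transfer RNAs and 2 the ribosomal RNAs. Of this pair of ribosomal RNAs, mt-Rnr2 read 5992, 5968 and 5983 CPM in controls and 4837, 5043 and 4627 CPM in CBP-ifKO mice. The groups were clearly apart (log2 fold change -0.31), and in EE neither passed, at a median of -0.28 for the pair against -0.29 in SC. Bc1, a small dendritic RNA of neurons, read 432, 386 and 372 CPM in controls and 262, 282 and 289 CPM in CBP-ifKO mice, again with no overlap (-0.52, adjusted p = 0.00115 in edgeR). In EE its difference was -0.13 (adjusted p = 0.648), and the interaction had an unadjusted p of 0.0425 and did not pass. Firre, a long noncoding RNA of the X chromosome, rose from a control range of 90.8 to 114 CPM to 137, 133 and 141 CPM (0.43, adjusted p = 0.00722), and every CBP-ifKO mouse was higher than every control. Rest, a repressor of neuronal genes, rose by 0.65 but lost its call without CBP-ifKO mouse 2 or 3.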
